A study of Homo sapiens with 33 samples.

Results

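Unstimulated CaCo-2 cells were set against unstimulated THP-1 cells on 10 of the 33 deposited array columns, 5 for each line. CaCo-2 is an adherent line from a human colon carcinoma that keeps features of the intestinal epithelium, and THP-1 is a human monocytic leukaemia line that grows in suspension. The CaCo-2 columns were those labelled control replicates 1 to 5. The THP-1 columns were control replicates 1, 2, 3, 4 and 7. Labelled cDNA made from the RNA of each culture with radioactive phosphorus was hybridised to nylon membranes that carry 34560 cDNA spots, and the deposited value is a spot's intensity. THP-1 cells were grown in RPMI 1640 with 10% foetal bovine serum and CaCo-2 cells in DMEM with 20%, so that cell line and medium cannot be told apart. No agent was added to either control group. A further 7 THP-1 and 5 CaCo-2 arrays, from cells given tumour necrosis factor alpha (TNF) at 5 ng per ml for 60 min, served as a second set of arrays of the same lines. CaCo-2 TNF replicate 3 was left out, because CaCo-2 control replicate 8 correlated with it at 0.977 although the labels differ. Which label holds was not tested. The remaining TNF columns were at about 3 times the scale and were also left out. The labels do not state that the arrays of a line stem from different cultures. The p-values below therefore reflect the spread from array to array, part or all of which may be technical. Each array reads the RNA of a whole culture, so fewer cells with a transcript and less of it per cell cannot be told apart.

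Monocytes belong to the myeloid branch of blood cell formation. They carry proteins shared by most leukocytes, such as the haematopoietic kinases, adaptors and actin regulators of immune receptor signalling, and they store lysosomal enzymes and the proteoglycan serglycin in granules. Enterocytes instead form a polarised sheet that is held together by claudins, desmosomes and keratins and carries surface proteases with their inhibitors, and CaCo-2 cells in addition retain transcripts of fetal gut and liver. Both lines are tumour lines, each of them a single line, and stand for no more than themselves.

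The deposited intensities of an array fall into values above a lowest positive reading, which lay between 0.0921 and 0.130 on 9 of the 10 arrays, and exact 0, which stood at 32.1% to 35.7% of spots. The lowest reading of THP-1 replicate 3, a column at about 3 times the scale that was divided by 3, was 0.0378. Negative codes, at 67 to 168 spots of an array, were read as missing. Values above 0 and values at 0 were therefore described apart. Across the spots above 0 on all arrays, 2 arrays of the same line had a median correlation of 0.995 and 2 arrays of different lines one of 0.994.

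CaCo-2 control replicate 1 stood apart from the other arrays of its label. After each spot was centred on its mean over the 10 arrays, its median correlation with the other CaCo-2 arrays was -0.36 and with the THP-1 arrays 0.15. The other 9 arrays had medians between 0.04 and 0.38 with their own line. On the first principal component of all 22 arrays, which held 37.3% of the variance over 6401 spots, this array lay at -4.55 and the other CaCo-2 control arrays between 3.56 and 7.45. The THP-1 control arrays lay between -8.49 and -0.07. CaCo-2 TNF replicates 1 and 2 lay at -1.83 and 0.01, and CaCo-2 TNF replicates 4, 5 and 6 between 5.54 and 6.79. THP-1 TNF replicates 5 and 8 lay at 1.80 and 3.01, near the CaCo-2 arrays, and the other THP-1 TNF arrays between -5.78 and -0.91. With spots centred on the 22 arrays, CaCo-2 control replicate 1 correlated at 0.46 and 0.38 with CaCo-2 TNF replicates 1 and 2. With replicates 4, 5 and 6 the values were -0.28, -0.38 and -0.37. Counts of calls are given with and without CaCo-2 control replicate 1, and the reason for the position of these arrays was not tested.

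Some spots of leukocyte genes read above 0 on all 5 THP-1 arrays and exactly 0 on all 5 CaCo-2 arrays. The bases before the start of 2 of these genes, and of 1 gene with the opposite pattern, are shown because the 3 are known for expression in blood cells or in epithelia. LAPTM5 encodes a lysosomal membrane protein of blood cells, IL6R the receptor for interleukin 6, and AQP3 a water and glycerol channel of epithelia. IL6R and AQP3 were chosen after their values were seen. The sequences are RefSeq's for build GRCh38.p14, read 5′ to 3′ along the gene's strand and ending at the base before its annotated start. LAPTM5 lies on the minus strand at chr1:30757775-30758024, IL6R on the plus strand at chr1:154405093-154405342 and AQP3 on the minus strand at chr9:33447594-33447843. Capitals mark GAGGAA, letters of the purine-rich core bound by the myeloid factor PU.1, and TATAAA, letters of the TATA box, each searched on both strands with no overlap between the matches.
LAPTM5: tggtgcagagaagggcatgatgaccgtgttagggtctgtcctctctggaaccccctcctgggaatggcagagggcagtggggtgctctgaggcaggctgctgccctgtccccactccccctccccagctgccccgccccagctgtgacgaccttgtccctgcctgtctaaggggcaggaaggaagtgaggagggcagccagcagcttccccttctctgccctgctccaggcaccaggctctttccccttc
IL6R: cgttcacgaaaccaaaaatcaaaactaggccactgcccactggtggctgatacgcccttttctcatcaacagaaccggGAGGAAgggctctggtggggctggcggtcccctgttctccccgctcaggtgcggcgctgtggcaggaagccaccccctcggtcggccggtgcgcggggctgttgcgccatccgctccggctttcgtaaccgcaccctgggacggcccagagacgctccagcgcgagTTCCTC
AQP3: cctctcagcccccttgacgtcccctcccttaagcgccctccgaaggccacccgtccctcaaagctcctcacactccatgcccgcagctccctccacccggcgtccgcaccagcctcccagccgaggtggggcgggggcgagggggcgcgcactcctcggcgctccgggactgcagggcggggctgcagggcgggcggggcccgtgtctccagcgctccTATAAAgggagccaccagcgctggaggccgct
The IL6R window held GAGGAA 2 times, once on the gene's strand, ending 166 bases before the start, and once on the other strand, where it reads TTCCTC above and adjoins the start. It was found in the LAPTM5 and AQP3 windows 0 times. TATAAA was found 1 time, in AQP3, where it ended 26 bases before the start. Among 35116 RefSeq windows of the same 250 bases, 23.6% held GAGGAA and 10.7% TATAAA. The windows were 64.8% G and C in LAPTM5, 65.2% in IL6R and 73.6% in AQP3, against a median of 58.0%, and CG pairs numbered 3, 22 and 23 against a median of 11. A match of letters is a description and not a binding site, and the lack of one says only that these letters are not in this window.

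LAPTM5, spot 70M02, read 0.335, 0.302, 0.310, 0.310 and 0.304 on the 5 THP-1 arrays and 0 on all 5 CaCo-2 arrays. Their mean stood at a percentile of 72.0 among the values above 0 on those arrays, so they were not among the dimmest. HLA-E, a class I molecule recognised by natural killer cells, read 0.302, 0.309, 0.320, 0.309 and 0.308 in THP-1 at spot 32M06 and likewise 0 throughout CaCo-2. The groups did not overlap at either spot, and no fold is given against values listed at 0. Each spot was above 0 on 1 CaCo-2 TNF array, where LAPTM5 read 0.312 and HLA-E 0.337. The means on the THP-1 TNF arrays were 0.303 and 0.307. An exact 0 is not taken here as absence of the transcript.

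CD93, a surface lectin of monocytes and endothelium, has 3 spots. Spot 13M08 read 0.246, 0.222, 0.237, 0.234 and 0.229 in THP-1 and 0 on every CaCo-2 array, and spot 68E17 was above 0 on 4 of 5 THP-1 arrays and 0 of 5 CaCo-2 arrays. The remaining spot, 22N20, was above 0 on all 10 arrays and differed by -0.13 ± 0.04 (SE, CaCo-2 minus THP-1, log2), with an adjusted p of 0.096 in limma. That p was 0.034 without CaCo-2 replicate 1. With values centred by plate, here the first 2 digits of the spot identifier (not a term of the labels), it was 0.55.

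In all, 46 of 33655 spots without a missing value (0.137%) were above 0 throughout THP-1 and at 0 throughout CaCo-2, and 80 (0.238%) had the reverse pattern. A pattern over fewer arrays asks for less, so leaving out an array can only raise these counts. Without CaCo-2 replicate 1 they were 125 and 158. They passed 1.5 times their size also without THP-1 replicate 7 or CaCo-2 replicate 2, 3, 4 or 5, at 73, 71, 77, 95 and 81 spots for the first pattern, and without THP-1 replicate 3, at 130 for the second. Of the 46, 25 carried a single gene symbol. The brightest named ones were ATF6B, an endoplasmic reticulum stress factor, with a mean of 0.336 ± 0.0056 (SD, n = 5), PGBD1, a transposase-derived gene, at 0.322 ± 0.0074, LAPTM5 at 0.312 ± 0.014 and HLA-E at 0.310 ± 0.0064. Then came TP53BP2, a p53-binding protein, at 0.279 ± 0.0079 and DPY19L1, a mannosyltransferase family member, at 0.271 ± 0.0075. Further down were the leukocyte gene LAIR2 at 0.183 ± 0.0050, IL6R at 0.169 ± 0.0056 and the T cell and myeloid adaptor FYB1 at 0.118 ± 0.0041. These last 3 were picked after their values were seen. The means of the 46 spots ran from 0.114 to 0.463, with a median of 0.170.

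Above 0 throughout CaCo-2 alone were spots of REXO1, an RNA exonuclease, with 0.837, 0.754, 0.670, 0.713 and 0.623 on the 5 CaCo-2 arrays and 0 on all THP-1 arrays. ATP8B5P and ABCC13, both transporter pseudogenes, had means of 0.693 ± 0.16 and 0.489 ± 0.048 (SD, n = 5). PXYLP1, a phosphatase that acts on xylose of proteoglycans, followed at 0.320 ± 0.037, C5orf24 at 0.268 ± 0.035 and PKDCC, a secreted tyrosine kinase, at 0.258 ± 0.025. Of the 80 spots, 46 carried a single symbol, and the means of all 80 ran from 0.110 to 0.719 with a median of 0.139. C5orf24 spot 85A09 was above 0 on all 10 arrays and differed by -0.09 ± 0.05 (SE, log2), with limma's adjusted p at 0.38.

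Some genes known from fetal or epithelial tissue were also listed at 0 in THP-1. Those named next, and the list members given by counts of arrays, were picked after their values were seen. PEG10, an imprinted, retrotransposon-derived gene of placenta and fetal liver, had 3 spots. They were above 0 on 5, 5 and 4 of 5 CaCo-2 arrays and on 0, 1 and 0 of 5 THP-1 arrays. SOX9, a transcription factor of intestinal crypts, was above 0 only in CaCo-2 at spot 51L14, with 0.156, 0.121, 0.142, 0.127 and 0.109. Its 3 other spots gave 5 of 5 against 5 of 5, 2 against 0 and 4 against 3 arrays for CaCo-2 and THP-1. AQP3 read 0.168 ± 0.019 (SD, n = 5) in CaCo-2 and 0 throughout THP-1, and the junction adaptor AFDN was above 0 at spot 17N14 throughout CaCo-2 and at 0 throughout THP-1. At the other AFDN spots, 42C05 and 60D01, 4 and 5 CaCo-2 arrays and 4 and 4 THP-1 arrays were above 0.

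Spots of 1 gene could disagree. ELF3, an epithelial transcription factor, was above 0 throughout CaCo-2 and at 0 throughout THP-1 at spot 88A17, and the opposite held at spot 85B06. The plot of intensities at such spots shows the gap between the lowest readings and 0.

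**Figure D1:**
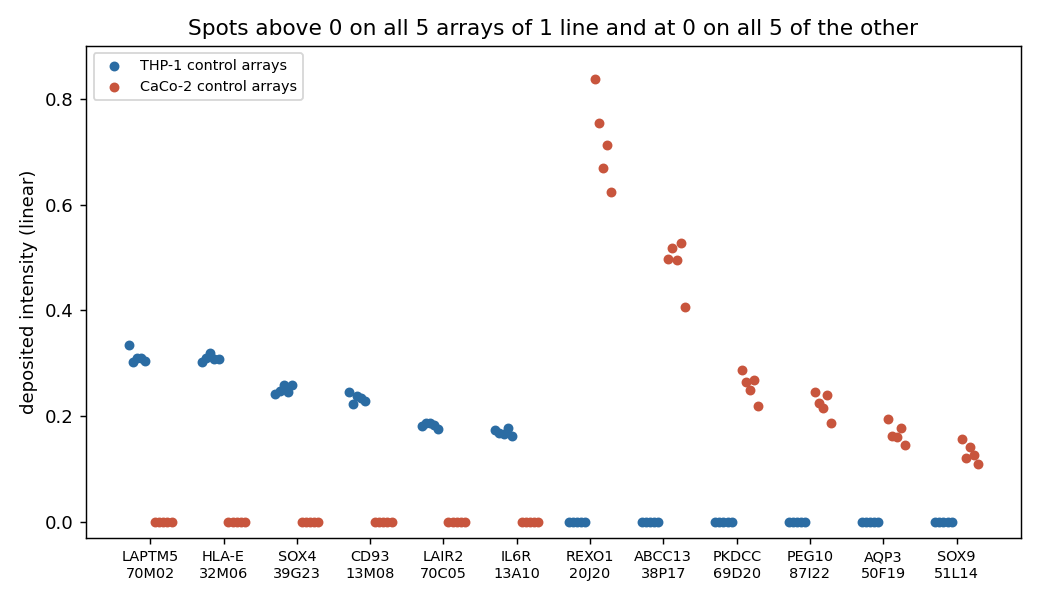
Deposited intensity on a linear scale at 12 spots, 6 above 0 only in THP-1 and 6 only in CaCo-2, with each control array as a point (5 per line) and the gene and spot under the axis. THP-1 readings of LAPTM5 lie between 0.302 and 0.335 and CaCo-2 readings of REXO1 between 0.623 and 0.837, with every array of the other line at 0.

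The columns of TNF-treated cells were not used to choose these spots. Whether THP-1 control replicate 3 shares readings with THP-1 TNF replicates 1 and 2 was not tested. Of the 46 spots, 41 were above 0 on a larger share of THP-1 than of CaCo-2 TNF arrays and 5 on a smaller share. Over all 32734 spots without a missing value on the 22 arrays, 38.6% were above 0 on a larger share in THP-1. Of 79 spots with the reverse pattern and no missing value there, 74 were above 0 on a larger share of CaCo-2 TNF arrays and 5 on a smaller one, against 35.6% of all spots. The full pattern recurred at 8 of the 46 and 6 of the 79, against 0.122% and 0.110% of all spots, and the opposite full pattern at 0 of each. LAPTM5 and HLA-E were each above 0 on 7 of 7 THP-1 and 1 of 5 CaCo-2 TNF arrays, and CD93 spot 13M08 on 7 of 7 and 0 of 5. Other bright named spots repeated less fully. ATF6B and DPY19L1 each gave 6 of 7 and 3 of 5, PGBD1 5 of 7 and 2 of 5, TP53BP2 3 of 7 and 0 of 5. Of spots at 0 throughout THP-1, REXO1 and ABCC13 each gave 1 of 7 THP-1 and 5 of 5 CaCo-2 TNF arrays. PXYLP1 gave 4 of 7 and 5 of 5, and C5orf24 2 of 7 and 2 of 5. AQP3 and AFDN spot 17N14 each gave 0 of 7 and 2 of 5.

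The columns at about 3 times the scale, taken as sums that include readings of some of the same arrays, did not always repeat a 0. In such columns of the line at 0, all values were 0 for 13 of the 46 spots and 41 of the 80, and some were above 0 for the other 33 and 39. These 2 counts are not alike, as they rest on 4 such columns for CaCo-2 and 2 for THP-1. The share over all spots is not given. CD93 spot 13M08 and HLA-E spot 32M06 were each above 0 in 2 of 4 such CaCo-2 columns and LAPTM5 in 1 of 4.

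Whole gene lists were next described by how many of their spots read above 0 on each array. The lists were chosen with earlier results of these data known. The leukocyte list includes the spots of LAPTM5, LAIR2 and FYB1 named above for reading 0 throughout CaCo-2. The list of pan-leukocyte and leukocyte cytoskeleton genes holds 52 spots of 31 genes without a missing value. Of these, 45, 41, 42, 50 and 42 were above 0 on the 5 THP-1 control arrays, and 28, 31, 28, 32 and 32 on the 5 CaCo-2 control arrays. The groups did not overlap, and CaCo-2 replicate 1, with 28, was at the low end of its group. Over all 32734 spots the THP-1 control arrays had 21542 to 22286 above 0 and the CaCo-2 control arrays 21092 to 22233, so that the groups overlapped there. Among the leukocyte spots, 32 were above 0 on more THP-1 than CaCo-2 arrays and 4 on fewer, against 30.9% and 26.3% of all spots. Without CaCo-2 replicate 1 these were 30 and 7, counted as shares of arrays.

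The leukocyte genes behind this count belong to several roles. Among adaptors, the FYB1 spot 64K12 was above 0 on 5 THP-1 and 1 CaCo-2 arrays and the APBB1IP spot, an adaptor of integrin activation, also on 5 and 1. FYB1 spots 09B11 and 60C08 gave 4 and 3 and 2 and 1, and on the TNF arrays 09B11 was above 0 on 4 of 7 THP-1 and 5 of 5 CaCo-2 arrays. DOCK2, the exchange factor through which leukocytes activate Rac, gave 4 and 1 at spots 24F10 and 51G07 and 3 and 1 at spot 32O19, but 5 and 5 at spot 47A03. RAC2, the haematopoietic Rac protein, PLEK, a kinase substrate of platelets and leukocytes, and INPP5D, a lipid phosphatase of immune signalling, each gave 5 and 2. RUNX1, a transcription factor of blood cell formation, gave 4 and 0 at spot 27H08 and 4 and 2 at spot 53N24, but 3 and 3 at spot 68C22 and 1 and 1 at spot 89A13. LST1, a small leukocyte protein of the class III histocompatibility region, gave 4 and 0 at spot 51A11 and 5 against 3 or 4 at its other spots.

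Other defining leukocyte genes did not pass the test. PTPRC, which encodes the leukocyte common antigen CD45, was above 0 on all 10 arrays and differed by -0.02 ± 0.04 (SE, log2), where limma's adjusted p was 0.77. ITGAL, an integrin of leukocytes, differed by -0.03 ± 0.05 (SE) at an adjusted p of 0.78. WAS, the actin regulator lost in Wiskott-Aldrich syndrome, differed by -0.07 ± 0.02 (SE) at an adjusted p of 0.14, and its other spot was above 0 on 3 THP-1 and 5 CaCo-2 arrays.

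Of the epithelial list of keratins, junctions and proteases, 73 spots of 41 genes had no missing value. The CaCo-2 control arrays had 46, 51, 51, 56 and 52 of them above 0 and the THP-1 control arrays 45, 41, 42, 36 and 42. The groups did not overlap, but CaCo-2 replicate 1, at 46, lay 1 spot above the highest THP-1 array. Of the 73 spots, 33 were above 0 on more CaCo-2 than THP-1 arrays and 14 on fewer, against 26.3% and 30.9% of all spots. Without CaCo-2 replicate 1 these were 37 and 16, counted as shares of arrays. Desmoplakin (DSP), which ties keratin filaments to desmosomes, was above 0 on 4 CaCo-2 and 0 THP-1 control arrays and on 3 of 5 and 0 of 7 TNF arrays. RAB25, an epithelial trafficking protein, gave 5 and 2 control arrays and 5 of 5 and 0 of 7 TNF arrays. Yet CLDN4, a claudin of tight junctions, was above 0 on all 10 control arrays at spot 59O01 and differed by -0.01 ± 0.08 (SE, log2), with an adjusted p of 0.98 in limma. Other spots went the other way. PPL spot 62N12 was above 0 on 3 CaCo-2 and 5 THP-1 control arrays, and EVPL and TSPAN1 each on 1 and 3.

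The list of fetal, hepatic and imprinted genes, 35 spots of 19 genes, had 26, 23, 27, 26 and 28 spots above 0 on the CaCo-2 control arrays and 18, 21, 23, 16 and 19 on the THP-1 control arrays. CaCo-2 replicate 2 and THP-1 replicate 3, both at 23, tied. Of the 35 spots, 18 were above 0 on more CaCo-2 than THP-1 arrays and 6 on fewer, against 26.3% and 30.9% of all spots. Without CaCo-2 replicate 1 these were 18 and 10, counted as shares of arrays. IGF2BP1, a fetal RNA-binding protein, was above 0 on 5 CaCo-2 and 1 THP-1 arrays at spot 31J05 and on 4 and 4 at spot 18C07. Imprinted genes also went the other way. H19 spot 38L07 and MEG3 spot 31K01 each gave 3 CaCo-2 and 5 THP-1 arrays, and PHLDA2 gave 2 and 4. On the TNF arrays the leukocyte list had 39 to 49 spots above 0 in THP-1 and 28 to 33 in CaCo-2, again with no overlap. The epithelial list had 36 to 49 and 46 to 59 and the fetal list 16 to 22 and 20 to 28, and both overlapped.

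The lists closest to each line's own identity did not separate the control arrays. Of 31 spots of the monocyte and myeloid list, 24 to 26 were above 0 in THP-1 and 19 to 24 in CaCo-2, so that the groups met at 24. On the TNF arrays these were 21 to 28 and 18 to 23, with overlap. Of 18 spots of the enterocyte and brush border list, 11 to 14 were above 0 in THP-1 and 12 to 14 in CaCo-2, and 11 to 16 and 12 to 15 on the TNF arrays.

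**Figure D2:**
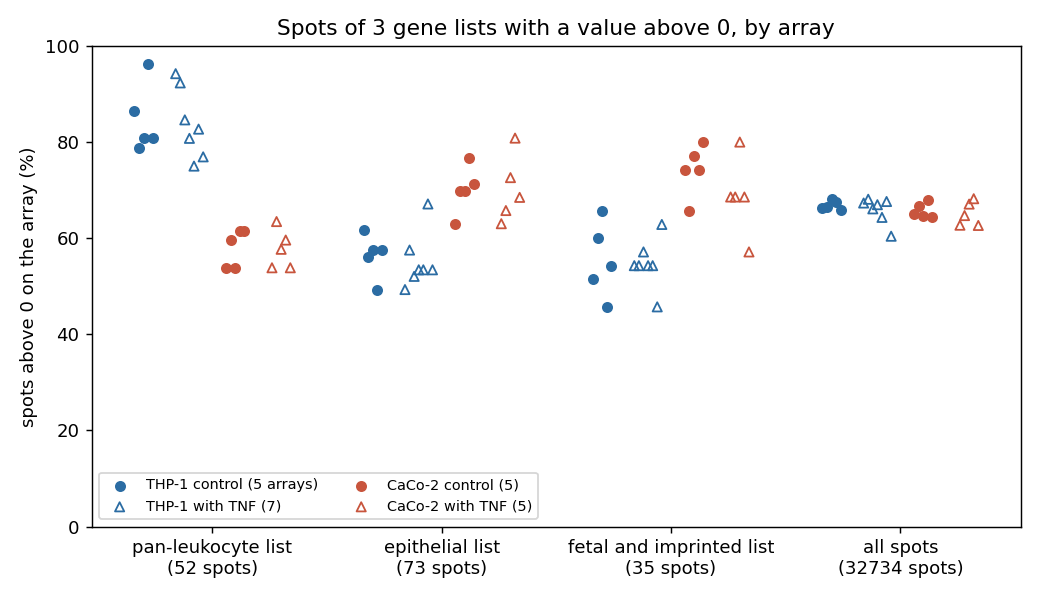
Percent of the spots of 3 gene lists, and of all spots, that read above 0 on each array (y axis), with 5 THP-1 and 5 CaCo-2 control arrays as filled circles and 7 THP-1 and 5 CaCo-2 TNF arrays as open triangles. For the leukocyte list every THP-1 array lies above every CaCo-2 array, with 39 spots or more of 52 against 33 or fewer, while over all spots the lines overlap.

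The remaining comparison concerns the 9074 spots above 0 on all 10 arrays. Limma, with arrays quantile normalized and p-values adjusted by Benjamini-Hochberg over these spots, called 93 of them at an adjusted p under 0.05 (1.02%), 42 higher in CaCo-2 (0.463%) and 51 lower (0.562%). The differences were small. The median size over all tested spots was 0.05 on the log2 scale, 1% of them exceeded 0.31, the largest was 0.80, and 2 called spots exceeded a fold of 1.5. Of the called spots, 43 carry a single symbol, for 42 genes, 1 carries several and 49 are unnamed. Non-overlap of the groups was as frequent in both directions, at 227 spots each (2.5%).

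Without CaCo-2 replicate 1, limma called 958 of 9691 spots (9.89%), 540 higher (5.57%) and 418 lower (4.31%), and all 93 were among them. Leaving out any other array gave 9 to 48 calls: 35, 16, 48, 16 and 18 without THP-1 replicates 1, 2, 3, 4 and 7, and 9, 15, 21 and 21 without CaCo-2 replicates 2, 3, 4 and 5. The split into higher and lower depended on the scaling. It was 42 to 51 as given, 39 to 32 without further normalization, 57 to 22 with array medians subtracted and 48 to 29 with values centred by plate. Of the 93 spots, only 15, 49 and 49 were still called in these alternatives, though all 93 kept their sign. Before normalization the array medians of the tested spots ran from -1.90 to -1.42 (log2) in CaCo-2 and from -1.59 to -1.51 in THP-1. The split also depended on how 0 was read. With 0 as missing, limma called 80 of 19420 spots, 7 higher and 73 lower, and with 0 set at the lowest positive value 154 of 34559, 98 higher and 56 lower. Of the 93, these fits still called 45 and 14. In all 10 fits with 1 array left out, 8 spots were called, and KRT8P12, UXS1, PPT1 and TRIM68 are the 4 named genes among them.

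**Figure D3:**
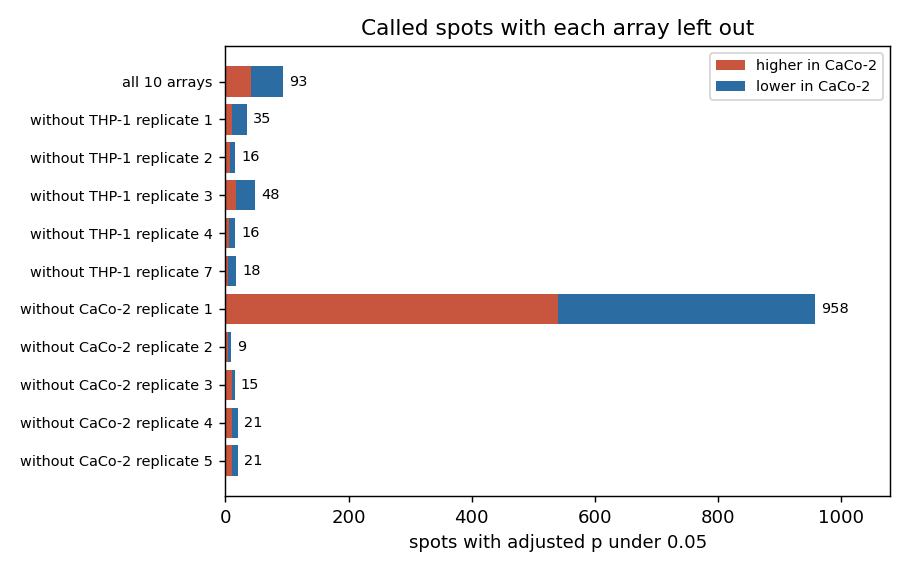
Number of spots called by limma at an adjusted p under 0.05 (x axis) with all 10 control arrays and with each array left out, split into spots higher and lower in CaCo-2. The bar without CaCo-2 replicate 1 reaches 958, the others run from 9 to 93.

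Among genes higher in CaCo-2, KRT8P12 showed the largest difference. It is a processed pseudogene of keratin 8, an intermediate filament protein of simple epithelia, and a cDNA spot of it cannot be told apart from one that reads KRT8 itself. Spot 22F13 read 0.519, 0.507, 0.482, 0.487 and 0.518 in THP-1 and 0.680, 1.08, 0.924, 0.947 and 0.661 in CaCo-2, with no overlap. The difference was 0.80 ± 0.09 (SE, log2), a fold of 1.74, with an adjusted p of 0.0035 in limma and 0.00019 without CaCo-2 replicate 1. On the TNF arrays the spot was above 0 on 6 of 7 THP-1 arrays and so was not tested there.

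SPINT2, a membrane-anchored inhibitor of the serine proteases that epithelia carry on their surface, has 4 spots. At spot 40H19 it read 0.302, 0.308, 0.327, 0.301 and 0.312 in THP-1 and 0.384, 0.329, 0.352, 0.396 and 0.336 in CaCo-2, where the highest THP-1 and lowest CaCo-2 values nearly met. The difference was 0.30 ± 0.05 (SE, log2), with an adjusted p of 0.020 in limma and 0.0041 without CaCo-2 replicate 1. Spot 40A05 differed by -0.09 ± 0.04 (SE) at an adjusted p of 0.23, and this was the brighter spot. The other 2 spots were above 0 on 5 of 5 CaCo-2 and 4 of 5 THP-1 arrays. VIL1, the actin bundler villin of the brush border, differed by 0.05 ± 0.03 (SE) at an adjusted p of 0.24 in limma, and its groups overlapped.

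UHRF1 and RRM2, of the cell cycle list, were called higher as well. UHRF1, which guides maintenance DNA methylation at replication, read 0.278, 0.307, 0.288, 0.288 and 0.280 in THP-1 and 0.349, 0.370, 0.354, 0.331 and 0.276 in CaCo-2 at spot 71H06. The deposited values overlapped through CaCo-2 replicate 5, while the normalized levels did not. Its difference was 0.30 ± 0.05 (SE, log2; adjusted p 0.029 in limma), but a dimmer spot gave -0.04 ± 0.04 at an adjusted p of 0.61. RRM2, the small subunit of ribonucleotide reductase, differed by 0.20 ± 0.04 at an adjusted p of 0.039. In the cell cycle list, 14 genes were tested and these 2 were called, both higher, where 0.922% of 3579 genes represented by their brightest spot were called. The fit without CaCo-2 replicate 1 called 3 of 15, all higher, where 9.06% of all genes were called and 5.6% were higher.

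PHB1, a scaffold protein of the inner mitochondrial membrane, had levels between -1.63 and -1.59 on the THP-1 arrays and of -1.42, -1.12, -1.32, -0.96 and -1.24 on the CaCo-2 arrays (normalized log2 intensity). The difference was 0.39 ± 0.07 (SE), with an adjusted p of 0.026 in limma. TUBB3, the class III beta-tubulin, gave differences of 0.26 ± 0.05, 0.21 ± 0.07 and 0.18 ± 0.07 (SE, log2) at its 3 tested spots, and only the first passed, at an adjusted p of 0.0497 against 0.11 and 0.16. Beta-tubulin genes share much of their sequence, so a TUBB3 spot can also bind cDNA of its relatives. The spots named Atp6v0a2, a mouse symbol for a subunit of the vacuolar proton pump, gave 0.43 ± 0.09 at the called one and between 0.13 and 0.28 at 5 neighbouring spots.

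The further named genes higher in CaCo-2 were FLYWCH1, a zinc finger protein, by 0.24 ± 0.05 (SE, log2), DPAGT1, which starts the assembly of N-linked glycans, by 0.22 ± 0.04, CCDC86 by 0.21 ± 0.03, DHRS7C, a short-chain dehydrogenase, by 0.21 ± 0.04 and SLC39A14, an importer of zinc and other metals, by 0.20 ± 0.04. Their adjusted p in limma lay between 0.018 for CCDC86 and 0.049 for SLC39A14. In none of them did the groups overlap. Centred by plate, DPAGT1 and SLC39A14 had adjusted p of 0.088 and 0.060. CaCo-2 replicate 1 had the lowest level of its group at all of the 12 genes higher in CaCo-2 but DHRS7C and Atp6v0a2, where it was second lowest.

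Among named genes lower in CaCo-2, UXS1, PPT1 and SRGN showed the largest differences. UXS1 makes the UDP-xylose that starts glycosaminoglycan chains. At spot 31B10 its normalized log2 level was -0.13, -0.20, -0.49, -0.21 and -0.18 in THP-1 and -0.83, -0.67, -0.68, -0.73 and -0.66 in CaCo-2. The groups did not overlap, with THP-1 replicate 3 the lowest of its group. The difference was -0.47 ± 0.07 (SE, log2), with an adjusted p of 0.013 in limma. It was -0.41 after centring by plate, where the median difference of the 125 tested spots was -0.08.

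PPT1, a lysosomal thioesterase that removes palmitate from proteins, had the smallest adjusted p. It read 0.525, 0.517, 0.492, 0.495 and 0.503 in THP-1 and 0.430, 0.370, 0.396, 0.405 and 0.322 in CaCo-2. The difference was -0.32 ± 0.03 (SE, log2), with an adjusted p of 0.00048 in limma and 0.00035 without CaCo-2 replicate 1. It was the 1 called gene among 9 tested of the lysosome and granule list, beside 0.922% of all genes, and 1 of 10 was called without CaCo-2 replicate 1, beside 9.06%. In this list NEU1, MCOLN1 and NAGLU gave 0.09, -0.10 and 0.12 at adjusted p between 0.10 and 0.42.

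SRGN encodes serglycin, the core proteoglycan of haematopoietic granules. Its normalized log2 level was -0.25, -0.23, -0.53, -0.34 and -0.30 in THP-1 and -0.76, -0.60, -0.57, -0.66 and -0.58 in CaCo-2, where THP-1 replicate 3 nearly met the highest CaCo-2 array. The difference was -0.30 ± 0.06 (SE, log2), with an adjusted p of 0.044 in limma and 0.022 without CaCo-2 replicate 1. SRGN was 1 of 12 tested genes of the leukocyte list, and the 1 called, beside 0.922% of all genes. LCP2, an adaptor of immune receptor signalling, at -0.19 ± 0.05 (SE) and STK4, a kinase of the Hippo pathway, at -0.16 ± 0.06 missed the threshold, with adjusted p of 0.097 and 0.16. Both passed without CaCo-2 replicate 1, at 0.033 and 0.046.

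Other genes called lower were CCNF, a cyclin that also targets proteins for ubiquitination, by -0.29 ± 0.06 (SE, log2), TOR1AIP1, a protein of the inner nuclear membrane, by -0.28 ± 0.05, TUFT1 by -0.27 ± 0.05, STK24, a Ste20-type kinase, by -0.26 ± 0.05 and HOMER3, a scaffold protein, by -0.23 ± 0.04. GPD2, the mitochondrial glycerol phosphate dehydrogenase, VHL, which targets hypoxia-inducible factors, TIMM17B, a part of the mitochondrial import channel, and NOL9, a kinase of ribosomal RNA processing, fell by 0.22, 0.20, 0.20 and 0.19. Their adjusted p in limma ran from 0.022 for HOMER3 to 0.049 for NOL9. Levels overlapped at TIMM17B alone of these 9. After centring by plate, adjusted p exceeded 0.05 for VHL (0.16), NOL9 (0.091), TIMM17B (0.072), STK24 (0.067), TUFT1 (0.0506) and TOR1AIP1 (0.0504).

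**Figure D4:**
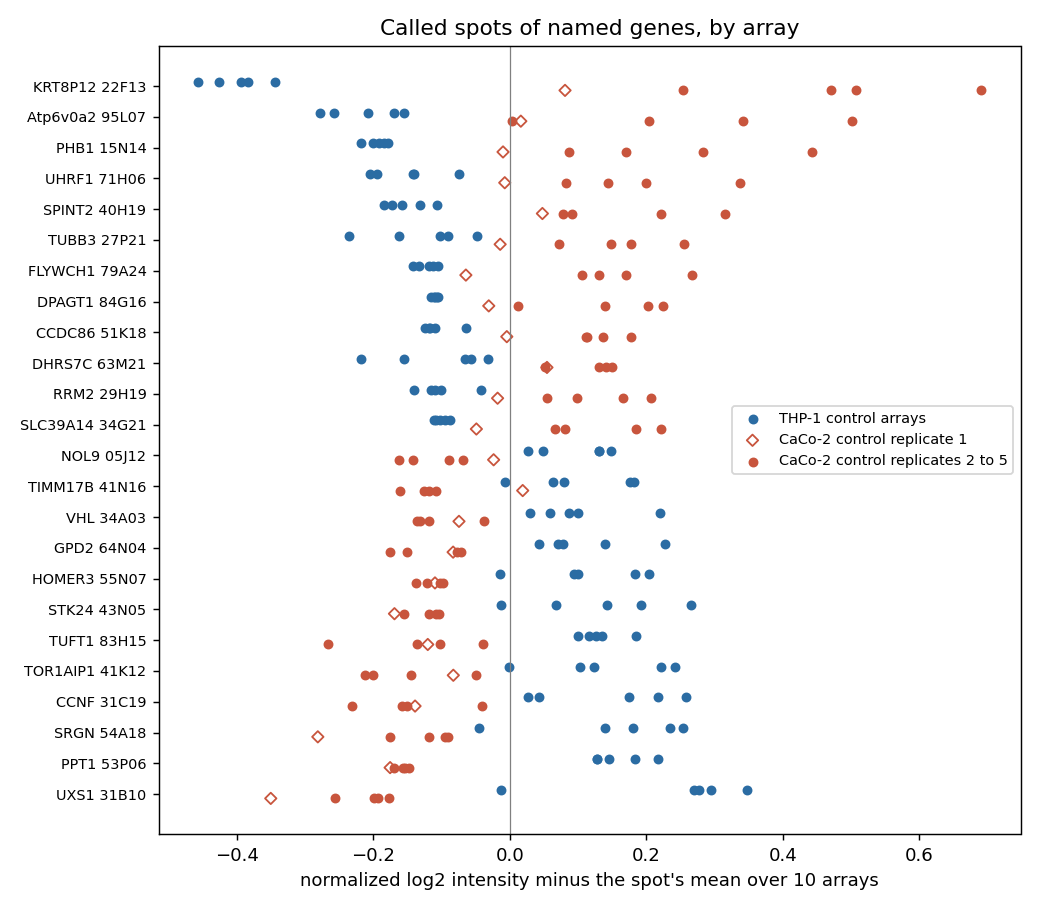
Normalized log2 intensity of 24 called spots of named genes on each control array, less the spot's mean over the 10 arrays (x axis). THP-1 arrays are blue points, CaCo-2 arrays red ones, and CaCo-2 replicate 1 an open diamond, which at most of the spots higher in CaCo-2 lies nearest to the THP-1 points.

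Where a called gene had further tested spots, these took its direction only in part. For 13 called genes there were 26 such spots, of which 16 differed in the direction of the call and 2 were called. Over all 515 genes with at least 2 tested spots, the first 2 had the same sign in 56.3%, with a correlation of 0.18 across genes, which are not independent replicates. STK24 gave 0.04 ± 0.03 and 0.00 ± 0.04 (SE, log2) at its other spots, VHL 0.03 ± 0.04 and NOL9 0.09 ± 0.07. MBNL1, a splicing factor picked after its values were seen, was called lower at both of 2 spots, by -0.17 and -0.15. Without CaCo-2 replicate 1, 187 of 260 further spots (71.9%) took the direction of the call and 58 were called.

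The TNF columns gave a second reading of the same lines. THP-1 control replicate 3, the column divided by 3, correlated at 0.979 with THP-1 TNF replicate 2 and at 0.979 with replicate 1. Columns taken as repeats correlated at 0.975 to 0.985 with their single column. Whether THP-1 control replicate 3 holds readings of these TNF arrays was not tested, so the 2 sets may not be fully separate. Of the 93 called spots, 54 were above 0 on all 12 TNF arrays, and all 54 had the same sign there, 25 higher and 29 lower, while 76.7% of 6401 spots measured on both sets had the same sign. Limma called 225 of 7751 spots on the TNF arrays (2.9%), 114 higher (1.47%) and 111 lower (1.43%), and 23 of the 54 were among them. UXS1 differed by -0.45 there against -0.47 on the control arrays and PPT1 by -0.35 against -0.32, with adjusted p of 0.0041 and 8.4e-05. SPINT2 spot 40H19 gave 0.28 at an adjusted p of 0.015, PHB1 0.25 at 0.015 and UHRF1 spot 71H06 0.19 at 0.020. Of 17 named called spots measured there, 8 passed, TOR1AIP1, STK24 and VHL being the others, and 9 did not. These 9 were RRM2, DHRS7C, CCDC86, TUBB3, CCNF, TUFT1, GPD2, TIMM17B and NOL9, with adjusted p from 0.066 for DHRS7C to 0.39 for TUFT1. TUFT1 differed by -0.10 there against -0.27 on the control arrays, CCNF by -0.12 against -0.29 and GPD2 by -0.11 against -0.22. Without CaCo-2 TNF replicates 1 and 2, limma called 431 spots, and 61 of the 93 were measured, of which all 61 had the same sign and 34 were called. CaCo-2 control replicate 5 and CaCo-2 TNF replicate 6 correlated at 0.83 over spots centred on the 22 arrays, above the 0.61 of the next pair of a CaCo-2 control array with a CaCo-2 TNF array.

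Whether TNF changed the difference between the lines was tested as an interaction over all 22 arrays. Limma called 0 of 6401 spots (0%), with 144 at an unadjusted p under 0.05, of which 3 were among the 54. CCNF and GPD2 were among the 3, at 0.046 and 0.044 before adjustment. The sizes were smaller on the TNF arrays, with a median of 0.16 against 0.20 at the called spots, whose choice rests on the control arrays.

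**Figure D5:**
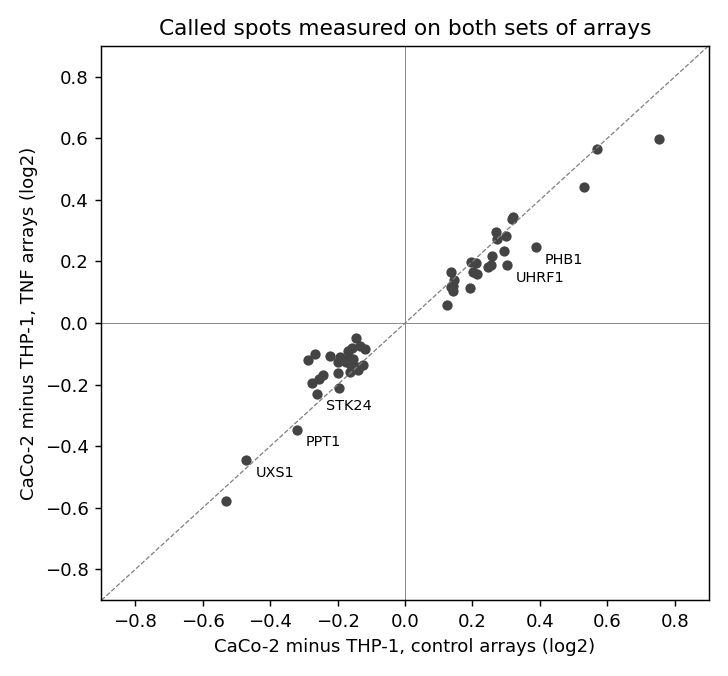
Difference between CaCo-2 and THP-1 in log2 intensity on the control arrays (x axis) and on the TNF arrays (y axis) for the 54 called spots measured on both, with the dashed line at equal values and 5 spots named. All 54 points lie in the 2 quadrants of equal sign.

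Of the remaining gene lists, few tested members passed. In the monocyte and myeloid list 0 of 10 tested genes were called, with a median of 0.00 that equals the 0.00 of all genes. Within it, both spots of CEBPA, a transcription factor of granulocyte and monocyte precursors, differed by -0.12 at adjusted p of 0.057 and 0.071, and neither pair of groups overlapped. Without CaCo-2 replicate 1, 2 of 11 were called lower, CEBPA and CD93. The leukocyte list had a median of -0.03, which was -0.05 without that array, when 3 of 13 were called, all lower, against 9.06% of all genes in either direction, 5.6% higher and 3.46% lower.

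Of 4 tested genes of class I and class II presentation 0 were called, with or without CaCo-2 replicate 1. B2M, beta-2-microglobulin, had normalized log2 levels of 0.08, -0.21, -0.44, -0.16 and -0.20 in THP-1 and -0.61, -0.41, -0.41, -0.47 and -0.35 in CaCo-2. It differed by -0.26 ± 0.08 (SE, log2), where limma gave an adjusted p of 0.12. THP-1 replicate 3 lay within the CaCo-2 range, and on the TNF arrays the difference was -0.26 at an adjusted p of 0.026. The 3 TAPBP spots, for the loading chaperone tapasin, gave -0.15, -0.06 and 0.06 at adjusted p of 0.092, 0.35 and 0.38.

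On the epithelial side, 0 of 13 tested genes of the keratin and junction list, 0 of 7 of the enterocyte list and 0 of 6 of the fetal list were called, with medians of -0.01, 0.04 and -0.07. These were 0 of 13, 1 of 7 and 0 of 6 without CaCo-2 replicate 1. NHERF1, a scaffold that anchors brush border transporters to ezrin, differed by 0.21 ± 0.06 (SE, log2) without overlap at an adjusted p of 0.10, and of 0.027 without CaCo-2 replicate 1. EGFR, the epidermal growth factor receptor, gave 0.19 and 0.08 at its tested spots, with adjusted p of 0.17 and 0.59. SPINT2 stands in the epithelial list by its brightest spot, 40A05, and so was not counted as called there.

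In the lists of metabolism and housekeeping, 0 of 6 ribosomal, 0 of 8 cholesterol and lipid, 0 of 6 interleukin and TNF family genes and 0 of 1 glycolytic gene were called. The same counts were 1 of 6, 0 of 10, 0 of 7 and 1 of 1 without CaCo-2 replicate 1. LDHA, lactate dehydrogenase A, gave 0.21 ± 0.08 (SE, log2; adjusted p 0.16 in limma), and RPS14, of the small ribosomal subunit, 0.13 ± 0.04 at 0.12. LDHA and the ribosomal gene RPL27A passed without CaCo-2 replicate 1, at adjusted p of 0.030 and 0.031. For lists meant for cells that neither culture should hold, a call compares the lines and cannot show that a transcript is absent from both. Called were 0 of 2 lymphocyte genes (CD4 and IL7R) and 0 of 5 fibroblast and endothelial genes (ACTA2, COL6A3, FLT1, PECAM1 and ROBO4). Of the erythroid list, 0 of 1 gene (TFRC) was called. Without CaCo-2 replicate 1 the counts of these lists were 1 of 3, 0 of 5 and 0 of 2. Their summed intensities overlapped between the lines, at 1.12 to 1.52 in THP-1 and 1.14 to 1.75 in CaCo-2 for the lymphocyte pair and at 2.57 to 2.79 and 2.67 to 2.87 for the fibroblast and endothelial genes. CD4, which monocytes carry as well, differed by 0.27 ± 0.13 (SE, log2; adjusted p 0.24 in limma), and by the fit without CaCo-2 replicate 1 it passed at 0.028. Of all spots of these lists, 5 to 6 of 7 lymphocyte spots were above 0 in THP-1 and 3 to 6 in CaCo-2, and 15 to 18 of 27 fibroblast and endothelial spots against 9 to 17. The defining B cell gene CD79B and the collagen gene COL1A1 were above 0 on all 5 THP-1 arrays and on 3 and 4 CaCo-2 arrays, and their part in the results was not tested.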

How the data were processed

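Radioactive cDNA of each culture's RNA was read on nylon membranes, per the labels' protocols. The deposited values were intensities on a linear scale. How the authors analysed the images, treated background and normalized these intensities was not given in the sources used here. The series matrix has 33 columns, and 23 were not used for the control comparison, 12 of them being the TNF arrays. THP-1 control replicate 3 was divided by 3, negative codes were set to missing, and exact 0 was described apart. Spots above 0 on all 10 arrays were log2 transformed, quantile normalized and tested two-sided with limma 3.58.1 (lmFit and eBayes with a variance trend) under R 4.3.3, at a Benjamini-Hochberg adjusted p of 0.05 over all tested spots. The fit was tested on simulated data of 9074 spots, 200 of them changed. It recovered 72% of the changes at a log2 size of 0.2, 80% at 0.3 and 100% at 0.5 and at 1, with 13 false calls. The simulated noise was independent between spots and held no array that stood apart as CaCo-2 replicate 1 did. Precision is limited by the 10 arrays.

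Of the spots, 18025 carry 1 gene symbol, 858 several and 15677 none, and 17928 were in the human reference table. Named genes were up to 12 per direction with the largest differences among called spots, up to 6 per direction with the highest mean among spots at 0 throughout 1 line, the markers LAPTM5, CD93, SRGN, SPINT2 and VIL1, and, of each list, the 4 genes or fewer with the lowest p. Genes in lists were represented by their brightest spot. The members and lists were chosen with earlier results of these data known. Alternatives were other normalizations, treatments of 0, filters, weights, blocks and left-out arrays. Centring by plate and leaving out arrays that stand apart were added after seeing the data.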

Additional observations from a re-analysis of the deposited data

Results flagged for a closer look

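Of 65 sets of values tested, each over a group of at least 4 arrays, 6 held an array far from the others of its group by Dixon's criterion, where chance gives about 1 in 20, or 3.25. LAPTM5 in THP-1 control replicate 1 read 0.335 in intensity against 0.302 to 0.310 on the other 4 arrays. PGBD1 on the same array read 0.309 against 0.324 to 0.328. UXS1 in THP-1 control replicate 3 had a normalized log2 level of -0.49 against -0.21 to -0.13, and CCDC86 in THP-1 control replicate 2 one of -1.64 against -1.70 to -1.68. The ABCC13 intensity of CaCo-2 control replicate 5 was 0.407, and the rest of the group lay between 0.495 and 0.528. Negative codes stood at 72 spots of CaCo-2 control replicate 4 and at 98 to 106 spots of each other CaCo-2 control array.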

How the results depend on the processing

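Against 93 called spots, 42 higher and 51 lower in CaCo-2, limma called 154 (98 higher) with 0 set at the lowest positive value, and 80 (7 and 73) with 0 as missing. It called 32 (18 and 14) among the 4537 brighter spots, 39 (15 and 24) without a variance trend, 820 (482 and 338) with array weights, in which CaCo-2 replicate 1 had 0.405 against 0.598 to 1.72, and 3 (3 and 0) with summed columns. With all 4 groups in 1 fit there were 230 (120 and 110). Lower calls numbered 32 without normalization, 22 with medians subtracted and 29 by plate. Without CaCo-2 replicate 1 and by plate together there were 988 (563 and 425). Leaving out 1 array gave 9 to 958 calls, 5 to 540 higher and 4 to 418 lower, the highest without CaCo-2 replicate 1. The replicate number as a block left 0 called (0 and 0), with 1184 at an unadjusted p under 0.05. Arrays of the same number had deviations correlated at -0.42, 0.15, -0.09 and 0.19, and these few values do not settle whether the numbers pair them.

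On the TNF arrays, 225 calls became 101 without normalization, 374 with medians subtracted, 549 with the replicate block and 431 without CaCo-2 TNF replicates 1 and 2. Spots at 0 throughout CaCo-2, 46, became 57 to 125 with 1 array left out and 16 with summed columns. Those at 0 throughout THP-1, 80, became 102 to 158 with 1 array left out and 36 on the TNF arrays. Both counts can only rise when an array is left out. The leukocyte list's median moved from -0.029 to -0.051 without CaCo-2 replicate 1, and that of antigen presentation from 0.010 to -0.030 by gene means. For 24 named called spots, 537 alternative values kept their sign, 303 of them past the threshold no more. Causes were not tested, and the 10 arrays limit every count.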
